A study of Saccharomyces cerevisiae with 8 samples.

Results

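The core RNA exosome of *Saccharomyces cerevisiae* is made of 10 proteins, and the transcripts of their 10 genes were followed here in cells that lack *RRP6* and in wild-type (WT) cells. The genes were chosen by name, not by a measured value, and comprise the cap subunits *RRP4*, *RRP40* and *CSL4*, the ring subunits *RRP41* (also *SKI6*), *RRP42*, *RRP43*, *RRP45*, *RRP46* and *MTR3*, and the catalytic subunit *DIS3* (also *RRP44*). All 10 were found among the 5753 open reading frame transcripts (ORF-Ts), which are mRNA annotations that include untranslated ends where these are known, in a table of 10054 transcripts of all classes.

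Total RNA of 4 *rrp6Δ* libraries and 4 WT libraries was depleted of rRNA and sequenced strand-specifically on a SOLiD instrument. The *rrp6Δ* strain carries a deletion of *RRP6* from the yeast knockout collection, the WT strain carries no deletion of that gene, and both strains are described as isogenic to BY4741, a laboratory haploid of mating type a. Cultures of both strains were harvested at the same density, at OD600 0.8, without any treatment. A number from 1 to 4 marks the preparation in each strain. The groups are described as biological replicates, but no source used here says whether the 4 *rrp6Δ* preparations came from 1 clone.

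The ring and the cap of the exosome form a barrel that has no catalytic activity of its own in yeast, and RNA is threaded through it to Dis3, an enzyme with both exonuclease and endonuclease activity. The same barrel works in the nucleus and in the cytoplasm. Rrp6 is a further exonuclease that joins the barrel only in the nucleus, on the cap side, where it trims snoRNA and rRNA precursors and removes cryptic unstable transcripts (CUTs). All core subunit genes are essential in yeast, whereas *RRP6* is not, so that *rrp6Δ* cells still depend on the complete core.

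*RRP6* itself was read at 60, 31, 42 and 16 counts in *rrp6Δ* libraries 1 to 4, against 1787, 1030, 754 and 660 counts in WT libraries 1 to 4. The log2 fold change of *RRP6* was -5.37 ± 0.29 (SE, n = 4 each, edgeR quasi-likelihood test, Benjamini-Hochberg FDR = 2.24e-06). Total counts per library were 8761140 to 12666126 in *rrp6Δ* and 6904004 to 11298227 in WT, and ORF-Ts held between 46.2% and 62.7% of them. Counts were scaled with TMM, edgeR's trimmed mean of M-values, over all 10054 transcripts, and a normalized count below is the CPM of the scaled library. A floor of 3 counts corresponded to between 0.183 and 0.444 normalized counts. Genes of a-cells were read in every library, with 1516 to 3715 counts in *rrp6Δ* and 1665 to 2987 counts in WT summed over *MFA1*, *MFA2*, *STE2* and *BAR1*, while the alpha-cell receptor *STE3* had 19 to 47 counts in *rrp6Δ* and 19 to 24 in WT. BY4741 carries deletions at *URA3*, *HIS3*, *LEU2* and *MET15*. *URA3* nevertheless had between 49 and 103 counts in every library of both strains, which goes against that description and was not resolved. *HIS3* had between 29 and 83 counts, and whether its deletion removes the whole gene was not examined. *LEU2* and *MET15* were not analysed here. Replicates of 1 strain differed by far more than sampling noise over all transcripts together. How much of the error of each subunit value below comes from depth was not separated.

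None of the 10 core subunit transcripts passed the thresholds for a call in either direction, which were a 1.5-fold difference at p below 0.05 and an FDR of at most 0.1. None had an unadjusted p-value under 0.05 in the edgeR quasi-likelihood test, and the same count of 0 called subunits came from DESeq2 and from edgeR's exact test. Of all 5753 ORF-Ts, 14.3% were down-regulated and 2.09% up-regulated under the same thresholds. The libraries of both strains overlapped for all 10 subunits, whereas for 13.8% of ORF-Ts every *rrp6Δ* library lay below every WT library and for 1.63% every *rrp6Δ* library lay above. This fit and its intervals below do not use the pairing of the libraries by preparation number. With the number as a block *RRP41* was down-regulated (edgeR quasi-likelihood FDR 0.0188), and with the block and TMM factors from ORF-Ts alone *RRP4* was up-regulated (edgeR quasi-likelihood FDR 0.00475) and *RRP41* was not called.

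**Figure D1:**
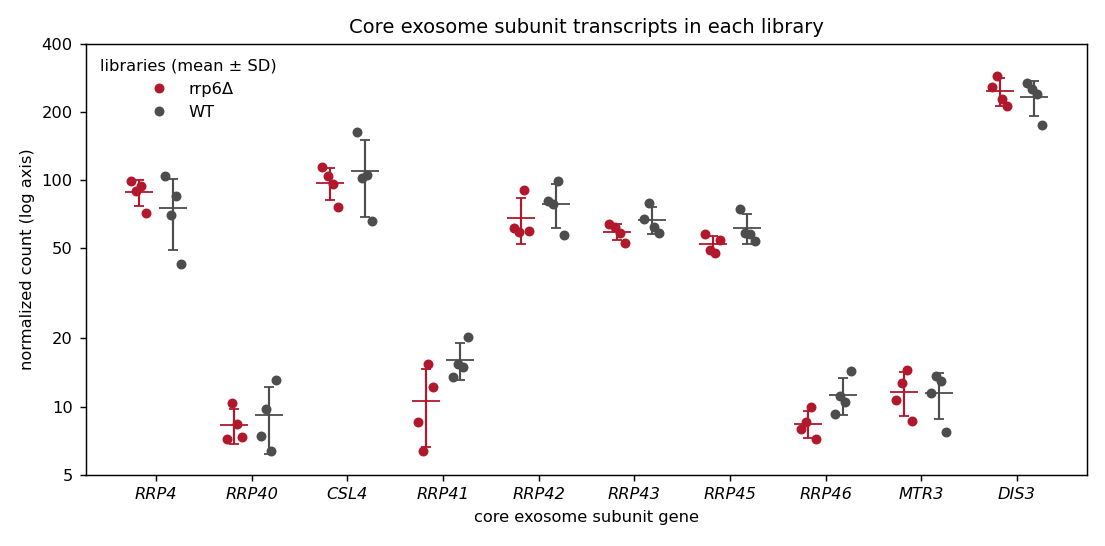
Normalized counts on a log axis for the 10 core exosome subunit genes, with 1 point per library, *rrp6Δ* to the left of WT, and mean ± SD over 4 libraries. The strains overlap for all 10 genes, and the genes fall into 6 with at least 42.5 normalized counts in every library and 4 with at most 20.3.

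Of the cap subunits, *RRP4* (YHR069C) encodes an RNA-binding protein with S1 and KH domains and lies on chromosome VIII (234672 to 233434, minus strand, sacCer3). It had 99.3, 89.5, 94.5 and 71.9 normalized counts in *rrp6Δ* libraries 1 to 4, against 104, 69.9, 85.1 and 42.5 in WT libraries 1 to 4. WT library 4 lay well below the other 7 libraries, and WT library 1 was the highest of all 8. On the log2 scale its fold change was 0.23 ± 0.25 (SE, n = 4 each), with a 95% interval from -0.31 to 0.78 and an edgeR quasi-likelihood FDR of 0.487. It was the highest of the 10 subunits.

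*RRP40*, the other S1 and KH cap protein, had 7.20, 10.4, 8.38 and 7.37 normalized counts in *rrp6Δ*, against 7.44, 9.81, 6.37 and 13.1 in WT. The *rrp6Δ* libraries lay inside the WT range. Its log2 fold change was -0.14 ± 0.28 (95% interval -0.74 to 0.46, edgeR quasi-likelihood FDR 0.712). *CSL4*, the third cap protein, had 114, 104, 95.8 and 76.5 normalized counts in *rrp6Δ*, against 164, 102, 106 and 66.1 in WT, and again the *rrp6Δ* values lay inside the WT range, which WT libraries 1 and 4 set. The log2 fold change of *CSL4* was -0.16 ± 0.26 (95% interval -0.72 to 0.39, edgeR quasi-likelihood FDR 0.635). *RRP40* (YOL142W) lies on chromosome XV (55537 to 56343, plus strand) and *CSL4* (YNL232W) on chromosome XIV (214887 to 215870, plus strand).

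The ring is built of 6 proteins related to bacterial RNase PH, arranged as the pairs Rrp41 with Rrp45, Rrp42 with Mtr3, and Rrp43 with Rrp46. *RRP41* (YGR195W, chromosome VII, 888776 to 889699, plus strand) had 8.54, 6.34, 15.4 and 12.2 normalized counts in *rrp6Δ* libraries 1 to 4, against 13.5, 15.5, 15.0 and 20.3 in WT libraries 1 to 4. *rrp6Δ* libraries 1, 2 and 4 lay below all WT libraries, and *rrp6Δ* library 3 lay inside the WT range. The log2 fold change of -0.59 ± 0.29 was the lowest of the 10, with a 95% interval from -1.21 to 0.03, a p-value of 0.0597 and an FDR of 0.138 in the edgeR quasi-likelihood test. With the replicate number as a block, *RRP41* was down-regulated, with a log2 fold change of -0.64 ± 0.21 and an edgeR quasi-likelihood FDR of 0.0188. In that blocked fit 19.4% of ORF-Ts were down-regulated. *RRP41* was also down-regulated when *rrp6Δ* library 3 was left out, at -0.83 and an edgeR quasi-likelihood FDR of 0.0643. With TMM factors from ORF-Ts alone it was not called, at -0.29 (edgeR quasi-likelihood FDR 0.539) without the block and -0.34 (edgeR quasi-likelihood FDR 0.233) with it.

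*RRP45* (YDR280W), whose protein pairs with Rrp41, lies on chromosome IV (1020617 to 1021768, plus strand) and had 57.7, 49.4, 47.6 and 54.6 normalized counts in *rrp6Δ*, against 74.9, 58.6, 58.0 and 54.1 in WT. Its log2 fold change was -0.23 ± 0.18 (95% interval -0.61 to 0.15, edgeR quasi-likelihood FDR 0.329). WT library 4 was the only WT library that reached into the *rrp6Δ* range.

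*RRP42* (YDL111C, chromosome IV, 264171 to 263268, minus strand) had 61.8, 59.3, 90.7 and 59.4 normalized counts in *rrp6Δ*, against 81.0, 78.2, 99.1 and 57.2 in WT. Library 3 was the highest in both strains, and *rrp6Δ* library 3 stood apart from the other 3 *rrp6Δ* libraries. *RRP42* had a log2 fold change of -0.22 ± 0.22 (95% interval -0.69 to 0.25, edgeR quasi-likelihood FDR 0.454). Its ring partner *MTR3* (YGR158C, chromosome VII, 806085 to 805093, minus strand) had 10.7, 12.7, 14.5 and 8.62 normalized counts in *rrp6Δ*, against 11.5, 13.6, 13.0 and 7.71 in WT. The *MTR3* values differed least between the strains, with a log2 fold change of 0.02 ± 0.26 (95% interval -0.54 to 0.58, edgeR quasi-likelihood FDR 0.958), and library 4 was the lowest in both strains.

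*RRP43* (YCR035C, chromosome III, 193028 to 191689, minus strand) had 63.8, 62.3, 58.4 and 53.0 normalized counts in *rrp6Δ*, against 67.7, 79.1, 62.2 and 58.2 in WT. Its log2 fold change was -0.17 ± 0.17 (95% interval -0.54 to 0.20, edgeR quasi-likelihood FDR 0.462). Its partner *RRP46* (YGR095C, chromosome VII, 676384 to 675626, minus strand) had 7.99, 8.52, 9.97 and 7.18 normalized counts in *rrp6Δ*, against 9.31, 11.1, 10.5 and 14.3 in WT. The *RRP46* value was -0.42 ± 0.24 on the log2 scale (95% interval -0.93 to 0.09, edgeR quasi-likelihood FDR 0.195). For *RRP43* and *RRP46* the *rrp6Δ* library was below the WT library of the same number in 4 of 4 pairs, and for *RRP41*, *RRP42* and *RRP45* in 3 of 4. These pairs use TMM over all transcripts, with which the median ORF-T was itself at -0.32. The share of all ORF-Ts with such pairs was not counted. With TMM factors from ORF-Ts alone the log2 fold changes were 0.14 (*RRP43*), 0.09 (*RRP42*), 0.07 (*RRP45*), -0.11 (*RRP46*) and -0.29 (*RRP41*).

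*DIS3* (YOL021C), which carries all the catalysis of the core, lies on chromosome XV (285479 to 282323, minus strand) and had 259, 290, 229 and 213 normalized counts in *rrp6Δ*, against 268, 252, 240 and 175 in WT. *rrp6Δ* library 2 was the highest and WT library 4 the lowest of the 8. The log2 fold change was 0.08 ± 0.20 (95% interval -0.36 to 0.53, edgeR quasi-likelihood FDR 0.764). In this fit, which does not use the pairing by preparation number, the intervals of all 10 subunits held 0. Those of *RRP43*, *MTR3* and *DIS3* lay within 1.5-fold in both directions.

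The direction of the small differences depended on the scaling. In bulk RNA, fewer cells that express a gene and less of its RNA per cell cannot be told apart. With TMM over all transcripts 7 subunits had a negative and 3 a positive log2 fold change, with a median of -0.17. The median of all ORF-Ts was -0.32 in the same fit, and 8 of the 10 subunits lay above it, *RRP41* and *RRP46* being the exceptions. With TMM factors taken from ORF-Ts alone the ORF-T median was -0.02, a shift of 0.30, and the subunit median was 0.14, with 8 positive and 2 negative values. The subunit median lay 0.15 above the ORF-T median with the scaling over all transcripts and 0.16 above it with the scaling on ORF-Ts. A change of scaling moves all transcripts nearly alike, so this offset could hardly differ. Under the ORF-T scaling 2.66% of ORF-Ts were down-regulated and 3.81% up-regulated, and again none of the 10 subunits was called.

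**Figure D2:**
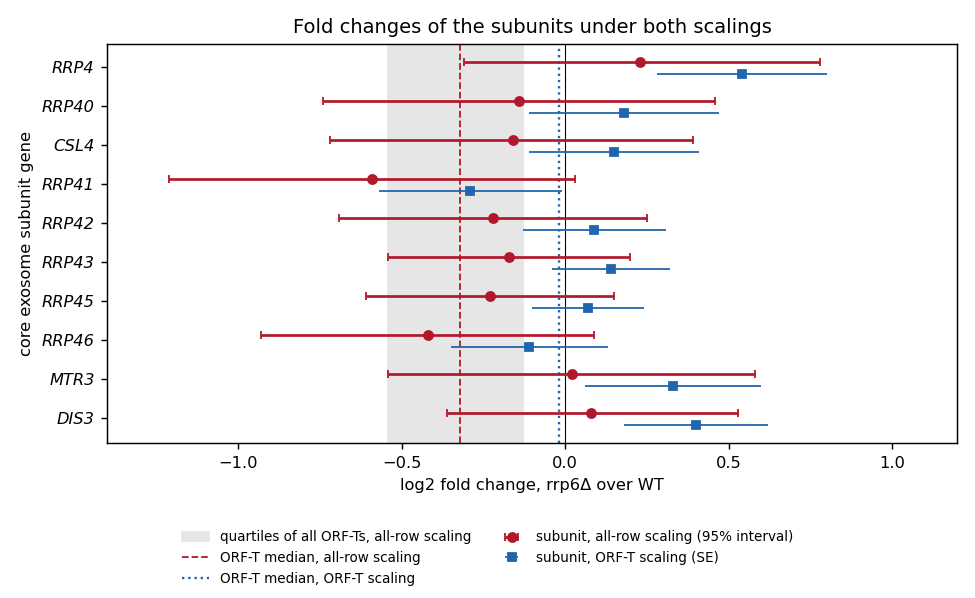
Log2 fold changes of the 10 core exosome subunits, *rrp6Δ* over WT, with TMM over all transcripts (circles, 95% intervals) and with TMM on ORF-Ts alone (squares, SE), beside the ORF-T medians of -0.32 and -0.02. The grey band runs from the lower to the upper quartile of the ORF-Ts, -0.54 to -0.13, with TMM over all transcripts. All 10 intervals, from the fit without the replicate block, hold 0.

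The offset from the median ORF-T rested in part on WT library 4. Without that library the subunit median was -0.18 and the ORF-T median -0.20, a difference of 0.02, and 5 of 10 subunits lay above the ORF-T median. Without *rrp6Δ* library 4 the difference was 0.27, with 9 of 10 above. WT library 4 had the lowest normalized count of all 8 libraries for 5 subunits (*RRP4*, *CSL4*, *RRP42*, *MTR3* and *DIS3*) and the highest for 3 (*RRP40*, *RRP41* and *RRP46*). It was also the library with the lowest total count, 6904004.

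*RRP4* was the subunit whose value came nearest to a rise. Relative to ORF-Ts its log2 fold change was 0.54 with an edgeR quasi-likelihood FDR of 0.155, and with the replicate block added to that scaling it was 0.60 ± 0.14 and up-regulated, with an edgeR quasi-likelihood FDR of 0.00475. In that fit 5.32% of ORF-Ts were up-regulated. *DIS3* had a log2 fold change of 0.40 and an edgeR quasi-likelihood FDR of 0.0316 in that fit, but stayed under the fold change minimum. With TMM over all transcripts, the *rrp6Δ* library of *RRP4* lay above the WT library of the same number in 3 of 4 pairs.

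*RRP41* had the lowest fold change of the 10 subunits in 18 of 19 alternative fits and *RRP4* the highest in 18 of 19. The exceptions were the fit without *rrp6Δ* library 2, in which *RRP46* was lowest, and the fit without WT library 4, in which *RRP40* was highest. Fits that changed only a threshold kept the same values, and those that changed only the scaling moved all subunits nearly alike. Such fits could hardly alter the order, so the count is not one of independent checks. The ratio of *RRP4* counts to *RRP41* counts, a pair chosen after its values were seen and therefore given without a test, needs no scaling between libraries. It was 11.6, 14.1, 6.13 and 5.91 in *rrp6Δ* libraries 1 to 4, against 7.76, 4.52, 5.69 and 2.10 in WT libraries 1 to 4. The *rrp6Δ* library was higher than the WT library of the same number in each of the 4 pairs, while the ranges of the strains overlapped.

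The 10 proteins are present once each in the complex, but their transcripts were not equally abundant. Normalized counts per kilobase of annotated transcript fell into 6 subunits well above the median ORF-T and 4 below it. *CSL4* was highest with 99.4 ± 16.3 in *rrp6Δ* and 111 ± 41.1 in WT (SD, n = 4 each). *DIS3* had 78.5 ± 10.7 in *rrp6Δ* and 74.0 ± 13.0 in WT, and *RRP42* had 75.1 ± 17.0 in *rrp6Δ* and 87.4 ± 19.0 in WT. *RRP4* followed with 71.7 ± 9.66 in *rrp6Δ* and 61.0 ± 21.1 in WT, *RRP45* with 45.5 ± 4.04 in *rrp6Δ* and 53.3 ± 8.0 in WT, and *RRP43* with 44.3 ± 3.61 in *rrp6Δ* and 49.9 ± 6.77 in WT. These 6 lay above the median ORF-T in both strains, which was at 17.9 in *rrp6Δ* and 22.0 in WT.

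The other 4 subunits formed a low tier. On the same per-kilobase scale *MTR3* had 11.7 ± 2.56 in *rrp6Δ* and 11.5 ± 2.67 in WT, and *RRP41* had 11.5 ± 4.33 in *rrp6Δ* and 17.4 ± 3.19 in WT. *RRP46* had 11.1 ± 1.55 in *rrp6Δ* and 14.9 ± 2.80 in WT, and *RRP40* had 10.3 ± 1.82 in *rrp6Δ* and 11.4 ± 3.72 in WT. The highest subunit level was 9.61-fold the lowest in *rrp6Δ* and 9.77-fold in WT. Each of the ring pairs Rrp41 with Rrp45, Rrp42 with Mtr3 and Rrp43 with Rrp46 thus joined 1 subunit of the high tier and 1 of the low tier.

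Within the tiers the order of neighbours was mostly not resolved. Neighbouring subunits in the order of levels had overlapping library values, except between *RRP4* and *RRP45* and between *RRP43* and *MTR3* in *rrp6Δ*, and between *RRP43* and *RRP41* in WT. The gap between the tiers was thus the only break between neighbours seen in both strains. Subunits further apart in the high tier could differ. The lowest *CSL4* library had 77.8 in *rrp6Δ* and 67.2 in WT, against 47.7 and 59.1 in the highest *RRP43* library. With the RefSeq coding length in place of the annotated transcript length, *DIS3* and *RRP42* changed places in *rrp6Δ* and no subunit did so in WT. Of the level summed over the 10 subunits, *RRP4* held 15.6% ± 0.794 in *rrp6Δ* and 12.1% ± 2.31 in WT, and *RRP41* held 2.53% ± 0.993 in *rrp6Δ* and 3.72% ± 1.47 in WT (SD, n = 4 each). Levels of different genes can also differ through how well SOLiD reads map to each of them, which was not tested.

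**Figure D3:**
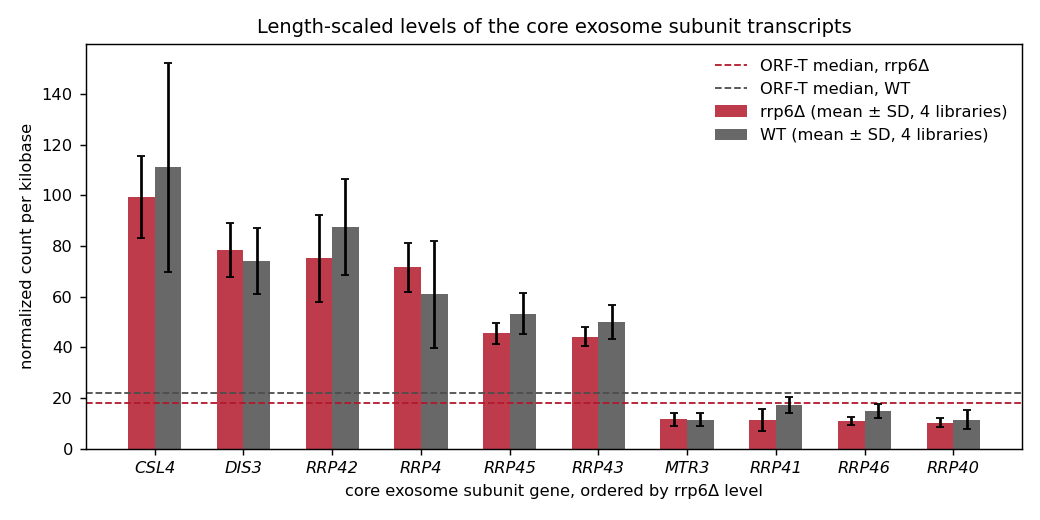
Normalized count per kilobase of annotated transcript for the 10 core exosome subunits, in the order of their *rrp6Δ* level, as mean ± SD over 4 *rrp6Δ* (left bars) and 4 WT (right bars) libraries, with the ORF-T medians of 17.9 in *rrp6Δ* and 22.0 in WT as dashed lines. The first 6 genes lie above both medians and the last 4 below both.

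Transcripts of the other subunits did not all vary with *DIS3* across the 8 libraries. The Pearson correlation of log2 normalized counts with *DIS3* was 0.83 for *RRP4*, 0.803 for *CSL4* and 0.685 for *MTR3*, and it was -0.733 for *RRP41*, -0.540 for *RRP46* and -0.392 for *RRP40*. *RRP43* had 0.513, *RRP45* 0.232 and *RRP42* 0.222. These values are descriptions over 8 libraries of 2 strains that share their scaling. WT library 4 was the lowest for *DIS3* and the highest for *RRP40*, *RRP41* and *RRP46*, so that it weighs on these negative values. Correlations without that library were not calculated. The 3 ORF-Ts most like *DIS3* over the 8 libraries were *TRZ1* (r = 0.985), which encodes the tRNA 3′ endonuclease, *TRM13* (r = 0.972), a tRNA methyltransferase gene, and *YGK3* (r = 0.971), a kinase gene of the GSK-3 family. *RRP4* ranked 167 and *RRP41* ranked 4932 among 5752 ORF-Ts.

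The genes that work with the core were read in the same fit. Of 14 cofactor and partner genes 1 was up-regulated and 0 were down-regulated, beside 2.09% and 14.3% of all ORF-Ts. *NRD1*, the up-regulated gene, encodes an RNA-binding subunit of the Nrd1-Nab3-Sen1 termination complex. *NRD1* had 34.3, 30.0, 35.5 and 38.6 normalized counts in *rrp6Δ*, against 12.9, 24.0, 13.8 and 34.7 in WT. WT library 4 alone reached the *rrp6Δ* range. The log2 fold change of *NRD1* was 0.70 ± 0.29 (edgeR quasi-likelihood FDR 0.0919), and leaving out any library but WT library 4 ended the call, with FDR values that reached 0.213. *NAB3* had a log2 fold change of -0.61 and *SEN1* of -0.06, neither of them called.

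The 7 nuclear cofactor genes are the exosome cofactor genes *LRP1* and *MPP6*, and *MTR4*, *PAP2*, *TRF5*, *AIR1* and *AIR2* for the TRAMP polyadenylation complex. These 7 had log2 fold changes from -0.39 (*AIR1*) to 0.26 (*AIR2*), and none was called. *LRP1*, whose protein binds Rrp6 directly, had 22.7, 23.7, 24.8 and 15.2 normalized counts in *rrp6Δ*, against 26.1, 25.4, 24.1 and 22.0 in WT. Its log2 fold change was -0.18 ± 0.21. The 4 genes of the cytoplasmic Ski pathway, which feeds mRNA to the same core, had log2 fold changes from -0.46 (*SKI2*) to -0.11 (*SKI3*), and none was called.

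Several noncoding transcripts around the subunit genes differed more than the genes, and others differed as little. Within 500 bases of a subunit, or overlapping it, 14 noncoding annotations were found at 8 of the 10 loci, and none at *RRP41* and *DIS3*. AS_YHR069C-A is counted among the 14 by its class, although it lies inside the mRNA annotation of *TRM5* on the same strand. Of the 14, 8 were up-regulated and 0 down-regulated, at the loci of *RRP4*, *CSL4*, *RRP42* and *RRP45*. Under the same thresholds 57% of all noncoding annotations were up-regulated, so that 8 of 14 was close to the share over all of them. By class, 81.3% of CUTs, 28.6% of stable unannotated transcripts (SUTs), 64.7% of Nrd1-unterminated transcripts (NUTs), 44.4% of Ssu72-restricted transcripts (SRTs) and 55.4% of antisense transcripts (named AS_ with their gene) were up-regulated. The authors kept an antisense annotation only where it changed in a first comparison of these libraries, so that its share is not an independent one. The 57% includes these annotations, and AS_YHR070W, AS_YDR279W and AS_YDR281C are among the 8 calls. Neither side of that comparison is therefore independent of these libraries.

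**Figure D4:**
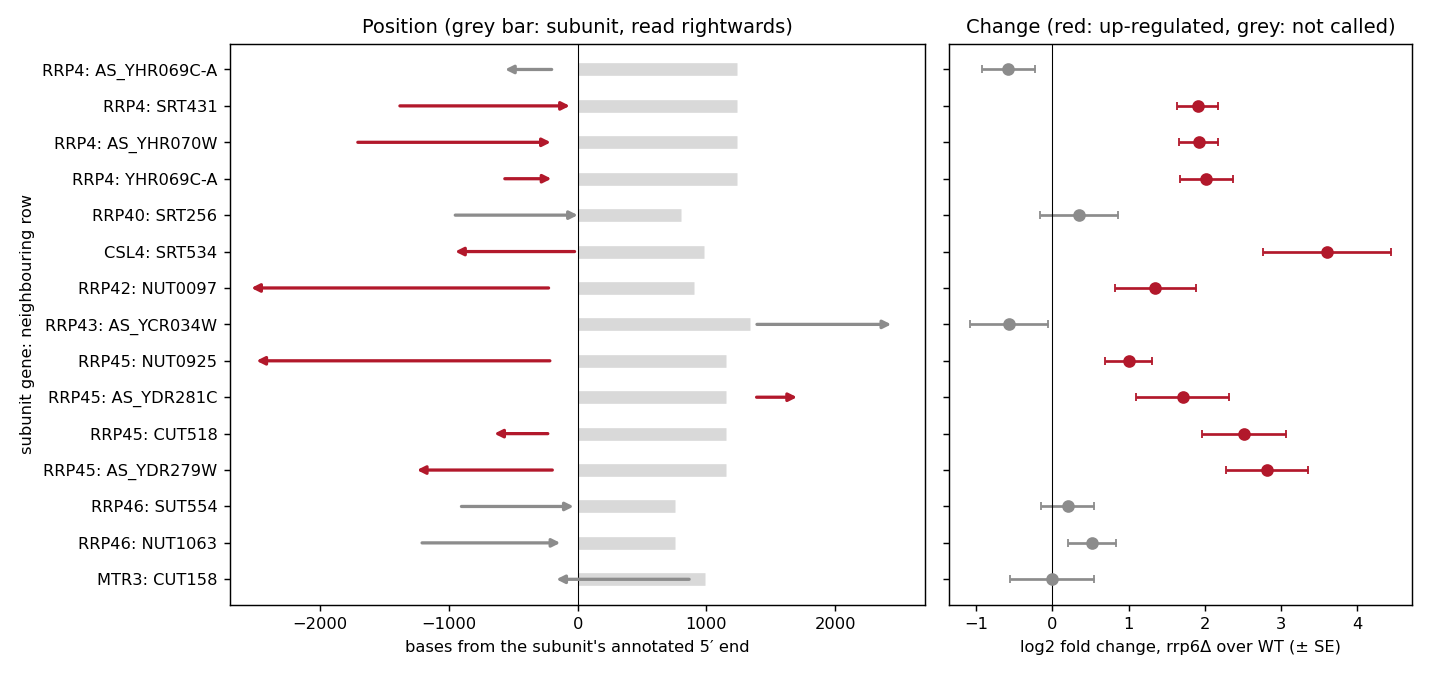
Position of the 14 noncoding annotations and of the small ORF-T *YHR069C-A* relative to the annotated 5′ end of the neighbouring subunit gene (left, in bases, arrows in the direction of transcription) and their log2 fold change, *rrp6Δ* over WT, ± SE (right). Red marks up-regulation, and the divergent and upstream annotations at *RRP4*, *CSL4*, *RRP42* and *RRP45* hold 7 of the 8 noncoding calls.

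The DNA before the annotated 5′ ends of these 4 genes and of *DIS3* is shown because the neighbouring transcripts start, end or run in it or beside it, or, for *DIS3*, because it holds both sequence elements searched for. Each is written 5′ to 3′ on the strand of the subunit gene, ends at the base before its annotated transcript, and was read from RefSeq's R64 genome, the build of the files. The coordinates are chrVIII:234673-234791 (minus) for *RRP4*, chrXIV:214686-214886 (plus) for *CSL4*, chrIV:264172-264396 (minus) for *RRP42*, chrIV:1020456-1020616 (plus) for *RRP45* and chrXV:285480-285579 (minus) for *DIS3*. Capitals mark the PAC core GATGAG on either strand (on the other strand before *DIS3*) and the RRPE core AAAATTTT, elements known from promoters of yeast ribosome biogenesis genes.
RRP4: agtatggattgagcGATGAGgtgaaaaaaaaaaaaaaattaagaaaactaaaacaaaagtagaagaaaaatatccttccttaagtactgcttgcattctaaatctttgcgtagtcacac
CSL4: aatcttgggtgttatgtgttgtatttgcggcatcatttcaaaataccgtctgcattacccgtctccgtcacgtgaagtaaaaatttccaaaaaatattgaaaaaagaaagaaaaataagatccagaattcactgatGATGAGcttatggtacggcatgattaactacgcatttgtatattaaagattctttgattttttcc
RRP42: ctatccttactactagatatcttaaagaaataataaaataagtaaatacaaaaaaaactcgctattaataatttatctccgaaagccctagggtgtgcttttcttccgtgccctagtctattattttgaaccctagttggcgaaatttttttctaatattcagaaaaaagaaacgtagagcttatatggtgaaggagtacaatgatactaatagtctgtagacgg
RRP45: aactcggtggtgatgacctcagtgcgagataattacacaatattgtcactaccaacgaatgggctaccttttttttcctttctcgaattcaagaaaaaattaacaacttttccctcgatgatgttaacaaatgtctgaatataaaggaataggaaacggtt
DIS3: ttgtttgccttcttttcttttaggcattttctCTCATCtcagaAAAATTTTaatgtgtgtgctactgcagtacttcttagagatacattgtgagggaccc

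Over the 250 bases before the annotated 5′ end, 6 of the 10 subunits held the PAC core on either strand (*RRP4*, *RRP40*, *CSL4*, *RRP43*, *MTR3* and *DIS3*), against 18.5% of all 5753 ORF-T windows of that length. The RRPE core, which reads the same on both strands, was found before *RRP41* and *DIS3*, against 9.87% of all windows. *DIS3* was the only subunit with both, and *RRP42*, *RRP45* and *RRP46* had neither. The median log2 fold change of all ORF-Ts with the PAC core was -0.27 and of those without it -0.33. A match says only that these letters are present in the window.

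At *RRP4* the upstream transcripts are annotated in the direction of the gene, with ends before its start. Where their RNA ends in these cells was not measured. Any of their reads that ran on into *RRP4* would be counted with *RRP4*, which was not tested. SRT431 (chromosome VIII, 236053 to 234733, minus strand) leaves a gap of 60 bases to the annotated start of *RRP4*, ends inside the *RRP4* stretch printed above, and lies antisense to *TRM5* (*YHR070W*). SRT431 had 397, 243, 262 and 219 counts in *rrp6Δ* libraries 1 to 4, against 66, 67, 43 and 25 in WT libraries 1 to 4. Every *rrp6Δ* library was above every WT library, and the log2 fold change was 1.91 ± 0.27 (edgeR quasi-likelihood FDR 4.38e-04). AS_YHR070W, at 1.92 ± 0.26 (edgeR quasi-likelihood FDR 3.86e-04), covers nearly the same bases and shares its reads. The small ORF-T *YHR069C-A*, named after its values were seen because it lies inside SRT431 and overlaps nearly all of its length with AS_YHR070W, rose as well, at 2.02 ± 0.35 (edgeR quasi-likelihood FDR 0.00142). On the other strand, AS_YHR069C-A lies inside the *TRM5* transcript and runs in its direction, so its reads cannot be told from *TRM5* mRNA. AS_YHR069C-A had a log2 fold change of -0.58 ± 0.35 (edgeR quasi-likelihood FDR 0.225). It was down-regulated only with the replicate block, at -0.62 and an edgeR quasi-likelihood FDR of 0.0172.

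At *CSL4* the neighbouring transcript runs the other way. SRT534 (chromosome XIV, 214863 to 213935, minus strand) is transcribed away from *CSL4* after a gap of 23 bases, across the *CSL4* stretch printed above with its PAC core. It had 12, 9, 27 and 13 counts in *rrp6Δ* libraries 1 to 4, against 0, 3, 0 and 0 in WT libraries 1 to 4, so that all WT libraries were at or under the floor of 3 counts. The summed counts were 61 in *rrp6Δ* and 3 in WT, a ratio of 13.7 after scaling, with a 95% counting interval from 4.48 to 68.4 that covers counting error only. SRT534 was up-regulated (edgeR quasi-likelihood FDR 0.0066), and its WT reads all came from WT library 2. *CSL4* itself had a log2 fold change of -0.16.

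*RRP45* had the most annotations around it. CUT518 (chromosome IV, 1020385 to 1019969, minus strand) is transcribed away from *RRP45* after a gap of 231 bases, and had 38, 6, 27 and 14 counts in *rrp6Δ*, against 2, 2, 3 and 2 in WT. Its log2 fold change was 2.51 ± 0.55 (edgeR quasi-likelihood FDR 0.00479), with no overlap between the strains. AS_YDR279W, at 2.82 ± 0.54 (edgeR quasi-likelihood FDR 0.00236), and NUT0925, at 1.00 ± 0.31 (edgeR quasi-likelihood FDR 0.0285), overlap CUT518 on the same strand and share reads with it. Beyond the 3′ end of *RRP45*, on its own strand, AS_YDR281C begins after a gap of 238 bases and had 49, 32, 35 and 11 counts in *rrp6Δ*, against 9, 15, 1 and 1 in WT. AS_YDR281C was up-regulated at 1.71 ± 0.61 (edgeR quasi-likelihood FDR 0.0541), a call that was lost without *rrp6Δ* library 1, 2 or 3 or WT library 3. Without WT library 2 it was 2.60 (edgeR quasi-likelihood FDR 0.00836).

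At *RRP42*, NUT0097 (chromosome IV, 264397 to 266707, plus strand) runs away from the gene after a gap of 225 bases. NUT0097 had 19, 11, 17 and 13 counts in *rrp6Δ*, against 2, 2, 3 and 8 in WT. All *rrp6Δ* libraries were higher, yet its log2 fold change of 1.35 ± 0.53 (edgeR quasi-likelihood FDR 0.0722) lost the call without any 1 of *rrp6Δ* libraries 1, 2 and 3 and WT libraries 1, 2 and 3. Without WT library 4 it was 2.19 (edgeR quasi-likelihood FDR 0.00745). The *RRP42* stretch printed above is the whole DNA between these divergent transcripts.

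The noncoding annotations at the other loci were not called. At *RRP46*, SUT554 and NUT1063 run towards the gene on its own strand, with log2 fold changes of 0.20 ± 0.35 and 0.52 ± 0.32. NUT1063 was up-regulated at 0.83 (edgeR quasi-likelihood FDR 0.0819) with TMM factors from ORF-Ts. At *MTR3*, CUT158 covers 87.3% of the gene on the other strand and was the only transcript annotated antisense to a subunit. CUT158 had 35, 7, 30 and 17 counts in *rrp6Δ*, against 31, 3, 20 and 6 in WT, and a log2 fold change of -0.01 ± 0.55 (edgeR quasi-likelihood FDR 0.993), with a 95% interval from -1.20 to 1.18. SRT256 at *RRP40* had 0.35 ± 0.51 and AS_YCR034W at *RRP43* had -0.57 ± 0.51.

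By arrangement, 5 of 6 divergent annotations, 2 of 5 upstream annotations on the strand of the gene, 1 of 2 downstream annotations and 0 of 1 antisense annotations were up-regulated. The share of all noncoding annotations was 57%. These counts and that share include AS_ annotations, which were kept for their change in these libraries. The divergent annotation without a call, AS_YHR069C-A, lies on the strand of *TRM5* mRNA. Of the 5 divergent calls, those of NUT0925, CUT518 and AS_YDR279W at *RRP45* share reads. The 4 subunits with an up-regulated neighbour had log2 fold changes of 0.23 (*RRP4*), -0.16 (*CSL4*), -0.22 (*RRP42*) and -0.23 (*RRP45*), and none of the 4 was called. The subunits without any noncoding annotation in range, *RRP41* and *DIS3*, had -0.59 and 0.08.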

How the data were processed

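The authors depleted rRNA, sequenced 4 *rrp6Δ* and 4 WT libraries as strand-specific SOLiD reads, used bfast for mapping to sacCer3 and bamutils for counting. They describe a mapping that discards rRNA and tRNA reads and another that keeps them, and the one behind the table is not given in the sources used here. The authors deposited raw counts per transcript, which were analysed, and a normalized signal per transcript, which was not used. The fold changes, p-values and FDR of the authors' own comparison are also in the table and were not used. Overlapping annotations share reads.

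Counts were fitted in R 4.3.3 with edgeR 4.0.16 (glmQLFit and glmQLFTest, TMM over all 10054 transcripts, no filter, no covariates), with Benjamini-Hochberg adjustment over all transcripts. The common biological coefficient of variation was 0.302. SE is the size of the log2 fold change divided by the square root of F, and tables were made in Python 3.11.15 with pandas 2.3.3. The fit was tested on simulated data. Alternatives were DESeq2 1.42.0, edgeR's exact test, 2 filters, 3 scalings, an FDR of 0.05, no fold change minimum, a replicate block with 2 scalings, and each library left out.

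The labels number the preparations alike in both strains, and the numbers were taken to pair the libraries because, after removing strain means, libraries with the same number correlated at 0.33 to 0.52 and others at -0.35 to 0.0124. Transcripts named were the subunits, *RRP6*, the listed cofactors, the annotations within 500 bases and the 3 ORF-Ts most correlated with *DIS3* (log2 of normalized count + 0.5). The members and lists were chosen with earlier results of these data known. Antisense annotations (AS_) have the coordinates of the RefSeq gene in 952 of 958 cases, which showed that the files and RefSeq R64 share a build. Protein sequences were not used here.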

Additional observations from a re-analysis of the deposited data

Results flagged for a closer look

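Of 54 groups of 4 libraries, 2 had a library far from the other 3, where chance gives about 1 in 20. *RRP42* had 90.7 normalized counts in *rrp6Δ* library 3, against 59.3 to 61.8 in the other *rrp6Δ* libraries, and WT library 3 was also the highest of its strain. SRT534 at *CSL4* had 0.377 normalized counts in WT library 2 and no read in the other 3 WT libraries, a value that rests on 3 counts.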

How the results depend on the processing

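No subunit was called in the fits that changed only the tool, the filter, the scaling or the thresholds. With the replicate block 1 subunit was down-regulated (*RRP41*, -0.64), with the block and TMM on ORF-Ts 1 was up-regulated (*RRP4*, 0.60), and between 0 and 1 were down-regulated when a library was left out. The block changed no other call reported here than those of *RRP41*, AS_YHR069C-A (-0.62) and, with TMM on ORF-Ts, *RRP4*. NUT1063 was called with TMM on ORF-Ts with or without the block. The subunit median moved to 0.06 with at least 10 counts in every library, 0.14 with TMM on ORF-Ts, 0.20 with library totals alone and 0.17 with the block and TMM on ORF-Ts, with a range of -0.20 to -0.06 when a library was left out.

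Signs turned with the scaling, in the order just given, for *RRP40* (0.09, 0.18, 0.19 and 0.20), *CSL4* (0.06, 0.15, 0.20 and 0.20), *RRP42* (0.01, 0.09, 0.16 and 0.09) and *RRP43* (0.05, 0.14, 0.21 and 0.14), and for *RRP45* in the last 3 (0.07, 0.13 and 0.08). CUT158 turned to 0.01 with DESeq2, 0.02 with filterByExpr, 0.29 with TMM on ORF-Ts, 0.36 with totals, 0.13 without sn/snoRNAs, extended snRNA transcripts and NUTs in the scaling, 0.08 with the block and 0.38 with the block and TMM on ORF-Ts. With a library left out, *RRP40* ranged from -0.28 to 0.16, *CSL4* from -0.27 to 0.15, *MTR3* from -0.11 to 0.19 and CUT158 from -0.33 to 0.36. The cause was not tested.

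The count of up-regulated partner genes fell to 0 at an FDR of 0.05 and was 0 to 1 when a library was left out. With at least 10 counts in every library 3 noncoding annotations at the loci were up-regulated, since the others called without it did not pass that filter, and 6 to 8 were when a library was left out. Rows with few counts, such as SRT534 and NUT0097, limit what can be read at these loci.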
